A study of Mus musculus with 9 samples.

Results

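RNA from the cochlear ducts of 3 mouse embryos heterozygous for the Prdm16 cGT gene trap allele (Prdm16 cGT/+, written Het) was compared with that of 3 wild type (WT, Prdm16 +/+) embryos at E14.5, to describe what the loss of a single functional allele did to the RNA of the duct. The libraries were chosen by their genotype label and make up 6 of the 9 in the series. The other 3 came from null embryos (cGT/cGT) and are used here only to place the heterozygote levels. The allele is a gene trap in every cell of the animal, so changes that start outside the ear cannot be separated from those of the duct. The strain was kept on the FVB/NJ background, embryos came from matings of heterozygotes, and the 3 embryos of each genotype were littermates. Each library held the microdissected ducts of both inner ears of 1 embryo, read as short single reads of polyadenylated RNA. Of 54232 genes counted, 17269 had enough counts in the 6 libraries to be tested.

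The duct at this age is an epithelial tube. Its floor holds the prosensory domain, which gives rise to the organ of Corti, and on its medial side Kölliker's organ, a transient epithelium that secretes much of the tectorial membrane. Its roof is non-sensory. The tube lies in periotic mesenchyme with vessels and the spiral ganglion close by, and these tissues have to be dissected away. Prdm16 encodes a zinc finger protein of the PRDM family, transcriptional regulators that act on chromatin, and in the duct it marks Kölliker's organ.

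Total counts ranged from 25540212 to 29450752 in WT and from 24767705 to 27696846 in heterozygote libraries. A count of 3, taken as the floor of a library, lay between 0.102 and 0.121 CPM (counts scaled to a common library size). That floor covers counting error only. The epithelial markers Epcam (646 to 687 CPM in WT, 649 to 694 CPM in heterozygotes) and Cdh1 (353 to 372 and 357 to 367 CPM) were high in all 6 libraries. The skeletal muscle genes Myod1, Myog and Myf5 stood between 0 and 0.321 CPM, and Myf5 held no count. By Y-linked RNA, WT 1 and Het 1 were male and the other 4 embryos female, so that the sexes were balanced between the genotypes. Het 2 held 1.55 CPM of summed Y-linked RNA beside Xist at 3990 CPM, against 307 CPM of Y-linked RNA in Het 1.

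WT embryos 1 and 2 stood apart from the other 4 libraries. On the first axis of a multidimensional scaling of the 6 libraries, which took 46.4% of the variance, WT 1 and WT 2 lay at -1.14 and -1.50, WT 3 at 0.411, and the heterozygotes between 0.626 and 0.908. The summed level of the 20 mesenchyme genes was 894, 1470 and 210 CPM in WT 1, 2 and 3, and 132, 196 and 156 CPM in Het 1, 2 and 3. That of the 18 endothelial genes was 156, 135 and 13.0 CPM in WT and 16.4, 15 and 19.1 CPM in the heterozygotes. Summed macrophage genes stood at 30.1, 40.3 and 6.61 CPM in WT and at 3.95 to 5.50 CPM in the heterozygotes. WT 3 thus lay near the heterozygotes, and WT 1 and 2 far above them. Null 3 was also rich in these, with 1870 CPM of mesenchyme and 115 CPM of endothelial RNA, against 96.0 to 141 CPM and 16.3 to 17.4 CPM in the other null embryos. It was unlike WT 1 and 2 in cartilage RNA, of which it held 2780 CPM against 1220 to 1720 CPM in the other 8 libraries. The tests below use all 6 libraries. Called genes, the list medians and list genes whose call changes are also given with WT 3 as the only control. The latter fit has a single WT library, which is assumed to vary as the heterozygotes do. In bulk RNA, fewer cells of a type and less RNA per cell cannot be told apart.

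WT 3 differed from the other 5 WT and heterozygote libraries in hair cell RNA, and Null 3 stood high with it. The summed hair cell list was at 347 CPM in WT 3 and 441 CPM in Null 3, against 211 to 289 CPM in the other 7 libraries. Otof, the otoferlin of the hair cell synapse, stood at 14.0 CPM in WT 3, at 0.592 and 0 CPM in WT 1 and 2, and at 0.146 to 0.883 CPM in the heterozygotes. The transcription factor Lhx3 stood at 2.68 CPM in WT 3 and at 0 to 0.0401 CPM in the other 5 libraries, and the myosin Myo15 at 17.2 CPM against 2.15 to 2.77 CPM. Atoh1, the factor that begins hair cell differentiation, did not follow this (7.12 CPM in WT 3, 5.17 to 6.85 CPM in the other 5). Of 14 hair cell genes 10 were tested and none was called (edgeR adjusted p from 0.155 to 0.911). Espn was lower without overlap (20.2 to 25.1 CPM in WT, 15.3 to 18.8 CPM in the heterozygotes). Myo7a was higher without overlap (14.4 to 18.7 CPM in WT, 19.3 to 19.4 CPM in the heterozygotes). Over all genes tested, 8.99% had every heterozygote below WT and 8.98% every heterozygote above. The median log2 fold change was -0.47, or -1.13 with WT 3 as the only control. WT 3 was already the high library here, so calls against it alone cannot separate genotype from that embryo. Lhx3, Barhl1 and Ptprq, not among the 10 tested, held 79, 82 and 152 counts in WT 3 and 0 to 12 in the heterozygotes. The fit with WT 3 alone also took in list genes outside the 10, and of the 10 it called only Otof and Myo15. In that fit 5 genes of the list were called lower (0.263% of all genes tested there), among them Otof (-5.10, edgeR adjusted p = 0.000181) and Myo15 (-2.77, edgeR adjusted p = 3.46e-05).

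**Figure D1:**
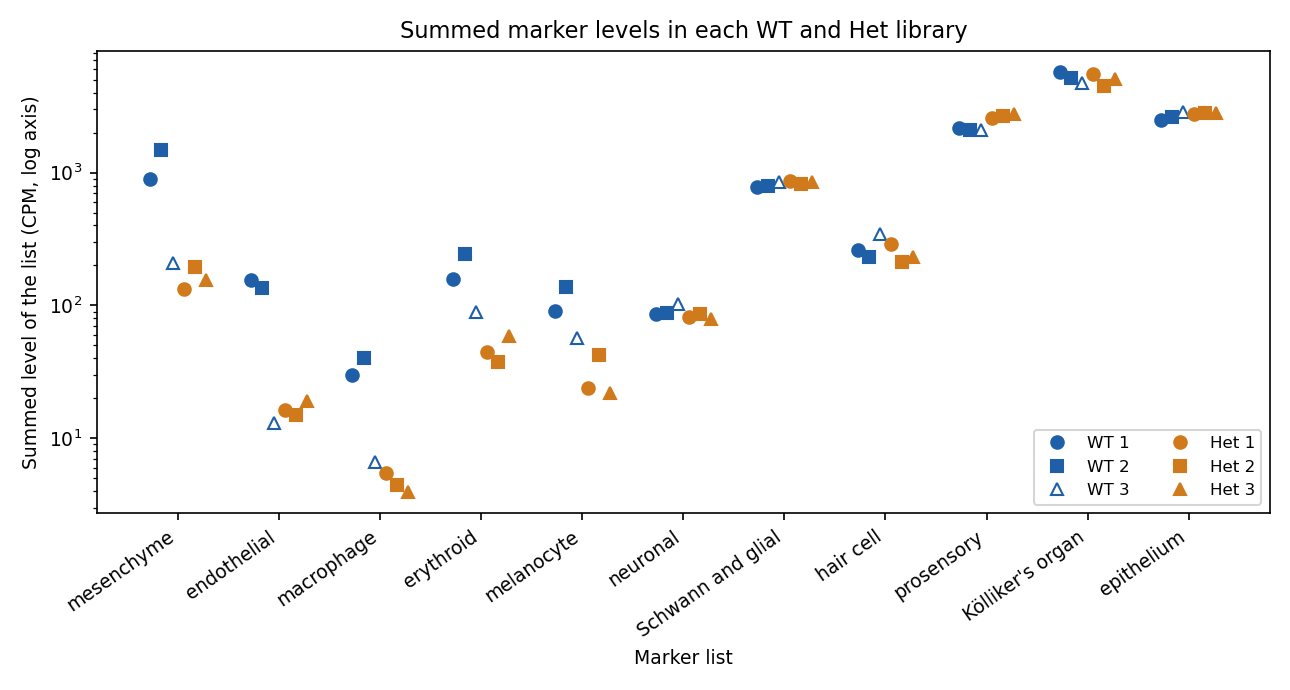
Summed CPM of 11 marker lists (log axis) in each of the 3 WT (blue; WT 3 open) and 3 heterozygote (orange) libraries. WT 1 and 2 lie apart from the other 4 libraries in mesenchyme (894 and 1470 CPM against 132 to 210 CPM) and endothelial RNA (156 and 135 CPM against 13.0 to 19.1 CPM), while epithelium spans 2510 to 2860 CPM over all 6.

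Prdm16 (ENSMUSG00000039410, chromosome 4, 154316125 to 154636873 of mm10, minus strand) stood at 225, 197 and 184 CPM in WT 1, 2 and 3 and at 151.1, 122.6 and 141.0 CPM in Het 1, 2 and 3. The lowest WT library lay above the highest heterozygote library. The heterozygote mean was 68.4% of the WT mean (138 ± 14.4 against 202 ± 21.0 CPM, SD, n = 3 each), and the log2 fold change was -0.55 (standard error 0.0872, edgeR adjusted p = 0.0485). Null libraries held 19.1 to 27.4 CPM, or 11.6% of the WT mean. Against WT 3 alone, the heterozygote mean was 75.2% and the log2 fold change -0.41 (edgeR adjusted p = 0.107). The call was thus lost without WT 1 and 2 and held in 1 of 6 fits with 1 embryo removed (without WT 3), though the direction was kept in all 19 alternatives. Antisense B230104I21Rik shares 109 exon bases with Prdm16 and had a mean of 1.35 CPM in WT.

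The upstream sequences are shown for the trapped gene and, of the other genes called below, for the most abundant in each direction (Tectb, higher, and Gsn, lower). Each run is the 250 bases before a RefSeq start on GRCm38.p6, 5′ to 3′ on the gene's own strand. For Gsn, which has several starts, the window was chosen for its matches. Capitals mark GATGAG or its reverse complement CTCATC, and the other letters searched were AAGATA and TATAAA, also on both strands. The first 2 are cores of sites known for Mecom, the closest relative of Prdm16, and the third is a TATA box.
Prdm16, chr4:154636874-154637123, minus strand: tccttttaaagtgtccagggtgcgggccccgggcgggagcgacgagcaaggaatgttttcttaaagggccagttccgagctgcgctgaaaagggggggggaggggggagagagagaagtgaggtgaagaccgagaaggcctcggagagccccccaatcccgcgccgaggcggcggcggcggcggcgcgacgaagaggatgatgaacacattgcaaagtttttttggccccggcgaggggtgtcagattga
Tectb, chr19:55180476-55180725, plus strand: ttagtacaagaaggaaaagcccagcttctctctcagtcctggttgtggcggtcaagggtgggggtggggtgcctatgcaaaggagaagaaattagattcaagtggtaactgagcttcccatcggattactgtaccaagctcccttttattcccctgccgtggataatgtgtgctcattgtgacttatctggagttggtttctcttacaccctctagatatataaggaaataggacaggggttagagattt
Gsn, chr2:35266494-35266743, plus strand: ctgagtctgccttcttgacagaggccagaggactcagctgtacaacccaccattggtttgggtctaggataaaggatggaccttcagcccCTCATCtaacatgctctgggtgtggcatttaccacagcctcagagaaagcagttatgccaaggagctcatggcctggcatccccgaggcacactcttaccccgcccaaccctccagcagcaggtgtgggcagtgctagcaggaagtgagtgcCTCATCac

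Of the 26 genes called below, 21 matched a window in the RefSeq table. GATGAG was found before 3 of these 21 genes (Gsn, Kcnj16 and Mdga2) and before 11.5% of all 27025 genes in the table. TATAAA was found before 2 of the 21 (Ddc and Kcnj16) and before 14.3% of all genes, and AAGATA before 0 of the 21 and before 10.1% of all genes. The Prdm16 window is rich in C and G (62.4%, with 22 CG pairs) and that of Tectb is not (46.0%, with 3), where the median over all windows is 52.4% and 6 pairs. These are descriptions of letters and not of binding.

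Across all genes, few were called between heterozygotes and WT. With edgeR, an adjusted p under 0.05 and a log2 fold change over 0.5 in size, 9 genes were higher in heterozygotes (0.0521% of those tested) and 17 were lower (0.0984%). Without a threshold on size, 22 genes were higher and 23 lower at that adjusted p. The higher genes were Nrxn3, Tectb, Ddc, Kcnj16, Gpld1, Adcy1, Prdm1, Msx1 and Fgf16. The lower genes were Prdm16 itself, Stmn2, Gxylt2, Tmprss4, Gsn, Pla2r1, Mdga2, Adamtsl3, Jph1, Tmtc2, Pak3, Pdzrn3, Pcdh17, Msc, Gas6, Kcp and Sema7a. Prdm16 was the only one of the 26 on chromosome 4. In all 26, the WT and heterozygote libraries did not overlap, which the call rule favours. With WT 3 as the only control, all 26 genes kept their direction. WT 3 and the heterozygotes had entered the calls, and WT 3 lay on the called side of every heterozygote in all 26. That direction was therefore fixed in advance. Of the higher genes, Ddc, Gpld1, Msx1 and Fgf16 lost their call there. Of the lower genes, Prdm16, Msc, Gas6, Pdzrn3, Tmtc2, Sema7a, Jph1 and Kcp lost theirs. No gene was called when Het 2 or Het 3 was left out (edgeR, with 1833 and 1934 genes at an unadjusted p under 0.05), and 2 higher and 1 lower without WT 2. Without WT 1 there were 29 higher and 18 lower calls. Without WT 3 there were 47 higher and 458 lower calls, and without Het 1 there were 4 and 6. DESeq2 on the 6 libraries called 48 genes higher and 271 lower, limma-voom 5 and 6, and the fit with all 9 libraries none (edgeR, 1130 genes at an unadjusted p under 0.05). The number of calls therefore depended strongly on the model and on single libraries.

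**Figure D2:**
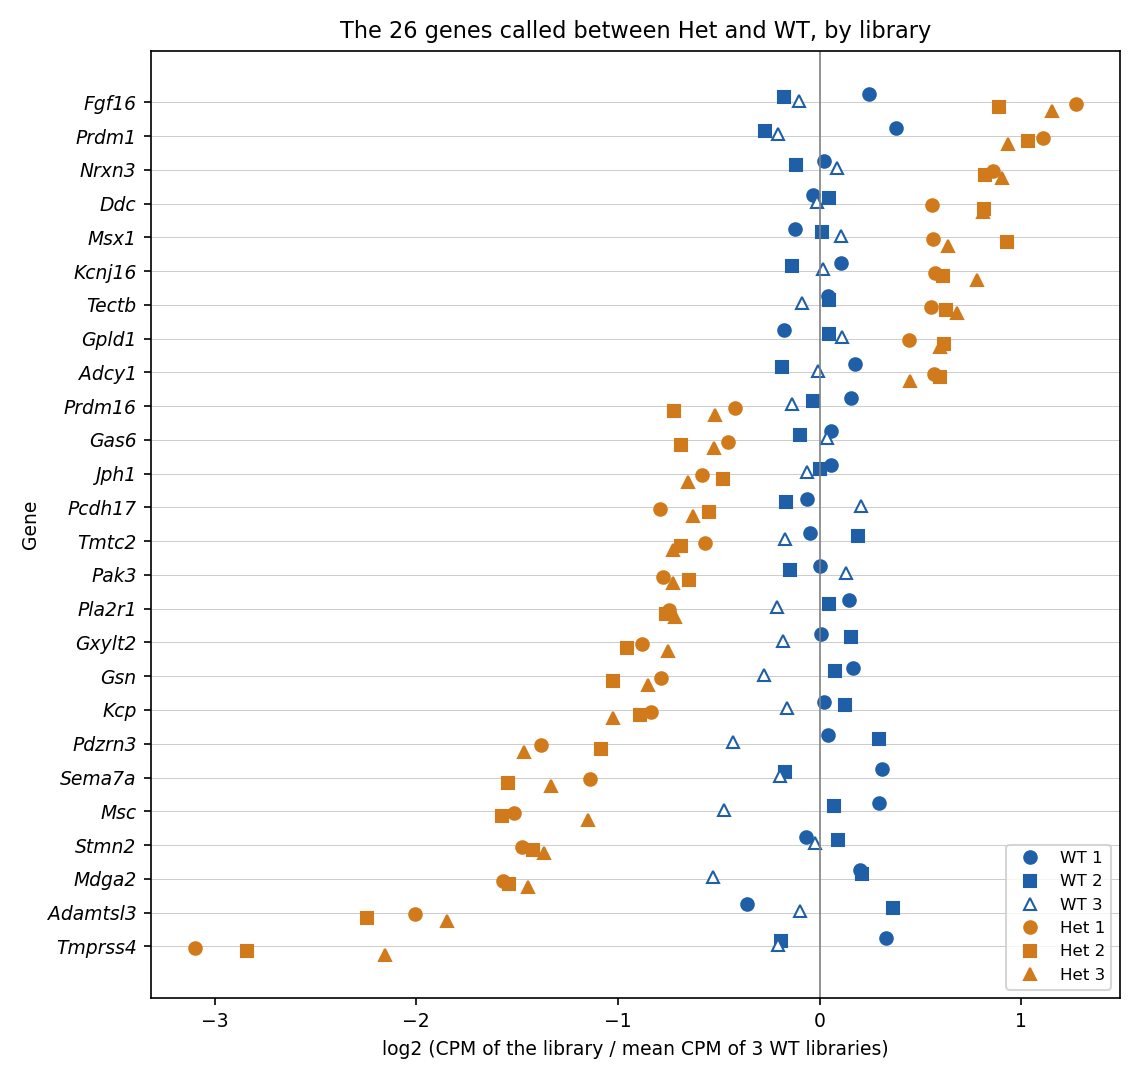
The level in each of 6 libraries, as log2 of its CPM over the mean of 3 WT libraries, for the 26 called genes (rows). The 3 heterozygote libraries (orange) lie to one side of the 3 WT libraries (blue, WT 3 open) in every row, which the call rule favours, and the fitted log2 fold changes run from -2.62 for Tmprss4 to 1.11 for Fgf16.

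At an unadjusted p under 0.05, 1001 genes (5.80% of those tested) were higher and 1265 (7.33%) lower. All 3 heterozygotes lay above all 3 WT libraries in 1551 genes (8.98%) and below them in 1552 (8.99%). Of the 1265 lower genes, WT 3 lay above every heterozygote in 1025, and of the 1001 higher genes WT 3 lay below every heterozygote in 939. Over all genes tested WT 3 lay above every heterozygote in 27.1% and below in 27.2%, and since WT 3 entered these p-values, both counts are favoured by the choice of genes. Large differences were mostly in one direction. Of the genes tested, 123 had a log2 fold change under -2 and 5 one over 2, and in 74 of the 123 WT 3 also lay above every heterozygote (27.1% of all genes tested).

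Among the higher genes, Tectb was the most abundant. It encodes β-tectorin, a protein of the tectorial membrane, and is also among the prosensory genes of the study's single cells. Tectb (chromosome 19, 55180733 to 55196313, plus strand) stood at 779, 782 and 712 CPM in WT and at 1113, 1170 and 1216 CPM in Het 1, 2 and 3. Every heterozygote lay far above every WT embryo, and WT 3, with little mesenchyme RNA, was the lowest of all. The log2 fold change was 0.62 (standard error 0.0617, edgeR adjusted p = 0.0107) and 0.71 against WT 3 alone (edgeR adjusted p = 0.00385). The adjusted p stayed under 0.05 in 4 of 6 fits with 1 embryo removed and in 15 of all 19 fits. Null libraries held 1553, 1696 and 1111 CPM. Null 1 and 2 lay above every heterozygote and Null 3 just below the lowest of them.

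Nrxn3 encodes a neurexin, a presynaptic adhesion protein, and is a Kölliker's organ gene in the single cells. It stood at 22.1, 20.1 and 23.1 CPM in WT and at 39.4, 38.5 and 40.7 CPM in the heterozygotes. The gap between the genotypes was several times the range within either. The log2 fold change of Nrxn3 was 0.86 (standard error 0.0788, edgeR adjusted p = 0.0107) and 0.78 against WT 3 alone (edgeR adjusted p = 0.00678). The null embryos stood at 37.6 to 46.7 CPM, around the heterozygote level, with a null against heterozygote log2 fold change of 0.07 (edgeR adjusted p = 0.797).

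Prdm1 encodes a transcriptional repressor of the same family as Prdm16. Its level was 12.9, 8.23 and 8.61 CPM in WT and 21.4, 20.3 and 19.0 CPM in the heterozygotes. All heterozygotes lay above all WT embryos, with a mean 2.03-fold higher in the fit (log2 fold change 1.02, standard error 0.161, edgeR adjusted p = 0.0466). It was called against WT 3 alone (1.23, edgeR adjusted p = 0.00395) and in 2 of 6 fits with 1 embryo removed. Null levels were 30.9, 23.5 and 19.1 CPM. Of the 14 genes in the Prdm family list, which leaves out Prdm16, 9 were tested and only Prdm1 was called. Over all genes tested, 0.0521% were called higher. Mecom stood at 14.4 to 17.1 CPM in WT and at 18.3 to 21.1 CPM in the heterozygotes. Its heterozygotes all lay above WT, as in 8.98% of all genes tested. Mecom did not pass (log2 fold change 0.32, standard error 0.0987, edgeR adjusted p = 0.197).

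Fgf16 encodes a secreted fibroblast growth factor. It was the least abundant of the higher genes, at 3.41, 2.55 and 2.68 CPM in WT and 6.94, 5.33 and 6.39 CPM in the heterozygotes. The difference was 1.11 on the log2 scale (standard error 0.182, edgeR adjusted p = 0.0498) and 1.21 against WT 3 alone (edgeR adjusted p = 0.0616). Null libraries held 9.04 to 12.1 CPM, above every heterozygote.

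Ddc, the decarboxylase that makes dopamine and serotonin, was at 13.4 to 14.2 CPM in WT and rose to 20.2, 24.2 and 24.1 CPM in the heterozygotes (log2 fold change 0.73, edgeR adjusted p = 0.0335). Null embryos stood higher still, at 31.7 to 41.4 CPM. Gpld1, a phospholipase that releases GPI-anchored proteins, was at 34.1 to 41.7 CPM in WT and rose to between 52.4 and 59.1 CPM (0.55, edgeR adjusted p = 0.0465), with 75.0 to 97.4 CPM in null embryos. Gpld1 shares 2466 exon bases with Mrs2 on the other strand, and the use of strand in the counting is not given in the sources used here. For Mrs2 the difference was 0.10 on the log2 scale (edgeR adjusted p = 0.508).

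Kcnj16, an inwardly rectifying potassium channel subunit, was at 21.0 to 24.8 CPM in WT and rose to between 34.2 and 39.6 CPM (0.66, edgeR adjusted p = 0.0363). Adcy1, an adenylyl cyclase, was at 52.0 to 67.0 CPM in WT and rose to between 81.0 and 89.7 CPM (0.54, edgeR adjusted p = 0.0466). Msx1, a homeobox transcription factor, was at 12.81 to 15.01 CPM in WT and rose to between 20.6 and 26.6 CPM (0.72, edgeR adjusted p = 0.0498). In null embryos Msx1 stood at 18.6 to 23.1 CPM and Kcnj16 at 33.2 to 45.3 CPM, both overlapping the heterozygotes. With WT 3 as the only control, Kcnj16 and Adcy1 were called and Msx1, Gpld1 and Ddc were not (edgeR adjusted p = 0.213 for Msx1, 0.0886 for Gpld1 and 0.0709 for Ddc).

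After Prdm16, Gsn was the most abundant of the lower genes. It encodes gelsolin, which severs and caps actin filaments. Gsn (chromosome 2, 35256380 to 35307892, plus strand) stood at 233, 219 and 172 CPM in WT and at 121, 102 and 115 CPM in Het 1, 2 and 3. The heterozygotes lay well below WT 3, the lowest WT library. The log2 fold change was -0.88 (standard error 0.105, edgeR adjusted p = 0.0171) and -0.61 against WT 3 alone (edgeR adjusted p = 0.00663). Null libraries held 36.9, 41.0 and 60.8 CPM, below every heterozygote (null against heterozygote -1.28, edgeR adjusted p = 0.0269).

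Pla2r1, a receptor for secreted phospholipase A2, followed the same order. It stood at 58.7, 54.9 and 45.9 CPM in WT, at 31.7, 31.3 and 32.3 CPM in the heterozygotes and at 13.3, 10.4 and 12.1 CPM in null embryos. No genotype overlapped another. The heterozygote log2 fold change was -0.74 (standard error 0.0905, edgeR adjusted p = 0.0194), and -0.53 against WT 3 alone (edgeR adjusted p = 0.0346). Null against heterozygote it was -1.42 (standard error 0.122, edgeR adjusted p = 0.00356).

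Stmn2 encodes a stathmin that binds tubulin and is best known from neurons. It stood at 8.18, 9.13 and 8.44 CPM in WT and at 3.09, 3.21 and 3.33 CPM in the heterozygotes. The embryos of each genotype lay within 1 CPM of each other. The difference was -1.42 on the log2 scale (standard error 0.135, edgeR adjusted p = 0.0107) and -1.40 against WT 3 alone (edgeR adjusted p = 0.00805), and it passed in 15 of 19 fits. Null libraries held 0.660 to 1.38 CPM. Of the neuronal list, in which Stmn2 is not included, the tubulin Tubb3 stood at 7.55 to 9.25 CPM in WT and 8.11 to 11.9 CPM in the heterozygotes. The sum of the list stood at 86.7 to 103 and 79.5 to 86.8 CPM. Of its 12 genes tested, 5 were lower and 1 higher without overlap (8.99% and 8.98% of all genes tested). The median log2 fold change of the list was -0.32.

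Tmprss4, a membrane serine protease, had the largest fitted fall among the called genes. It stood at 3.89, 2.70 and 2.68 CPM in WT, at 0.361, 0.432 and 0.694 CPM in the heterozygotes and at 0.0419 to 0.0968 CPM in null embryos, where every library was at or under a count of 3. Its log2 fold change was -2.62 (standard error 0.310, edgeR adjusted p = 0.0171), or 6.16-fold lower, and -2.42 against WT 3 alone (edgeR adjusted p = 0.0294). Msc, a bHLH repressor also called musculin, stood at 11.8, 10.2 and 6.95 CPM in WT, at 3.24 to 4.35 CPM in the heterozygotes and at 0.0323 to 1.17 CPM in null embryos. On the log2 scale Msc fell by 1.40 (edgeR adjusted p = 0.0465), a difference of -0.93 against WT 3 alone (edgeR adjusted p = 0.143).

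Pcdh17, a protocadherin and an outer sulcus gene of the single cells, was highest in WT 3. It stood at 64.4, 59.8 and 77.4 CPM in WT and at 38.8, 46.0 and 43.5 CPM in the heterozygotes. The log2 fold change of Pcdh17 was -0.65 (edgeR adjusted p = 0.0464) and -0.86 against WT 3 alone (edgeR adjusted p = 0.00156). Jph1, a junctophilin that joins the plasma and endoplasmic membranes, was at 30.5 to 33.2 CPM in WT and fell to between 20.3 and 22.9 CPM (-0.57, edgeR adjusted p = 0.0403; -0.51 and 0.152 against WT 3 alone). Gas6, a secreted ligand of the TAM receptors, was at 34.5 to 38.3 CPM in WT and fell to between 22.9 and 26.9 CPM (-0.55, edgeR adjusted p = 0.0466). Against WT 3 alone the Gas6 call was lost too (-0.59, edgeR adjusted p = 0.0689). Null levels of Gas6, 17.9 to 27.2 CPM, overlapped the heterozygotes.

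Each of the other 8 lower genes stood higher in Null 3 than in the other null embryos. They were Gxylt2, which adds xylose to Notch receptors, the adhesion protein Mdga2, the matrix protein Adamtsl3, the transferase Tmtc2, the kinase Pak3, the ubiquitin ligase Pdzrn3, the BMP modulator Kcp and the semaphorin Sema7a. Mdga2 stood at 15.9, 16.0 and 9.59 CPM in WT, at 4.65, 4.76 and 5.08 CPM in the heterozygotes and at 2.48, 1.45 and 15.2 CPM in Null 1, 2 and 3. Pdzrn3 stood at 12.2, 14.5 and 8.78 CPM in WT, at 4.53, 5.58 and 4.28 CPM in the heterozygotes and at 3.71, 3.36 and 20.4 CPM in the null embryos. For both, the 3 libraries rich in mesenchyme RNA were the highest of the 9. Of the 17 lower genes, 15 were highest in Null 3 among the null embryos (30.5% of all genes tested were), and 12 were lowest in WT 3 among the WT embryos (34.0% of all tested). With the mean log2 CPM of the mesenchyme list as a covariate 2 genes were called higher and 9 lower across all genes. With WT 3 as control Mdga2 (-0.99, edgeR adjusted p = 0.0361), Gxylt2 (-0.68, 0.0348), Adamtsl3 (-1.92, 0.0467) and Pak3 (-0.85, 0.0292) passed. Pdzrn3, Tmtc2, Kcp and Sema7a did not (edgeR adjusted p from 0.0921 to 0.202). Gxylt2 (chromosome 6, 100704734 to 100810913) and Pdzrn3 (101149609 to 101377897) lie close to each other.

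**Figure D3:**
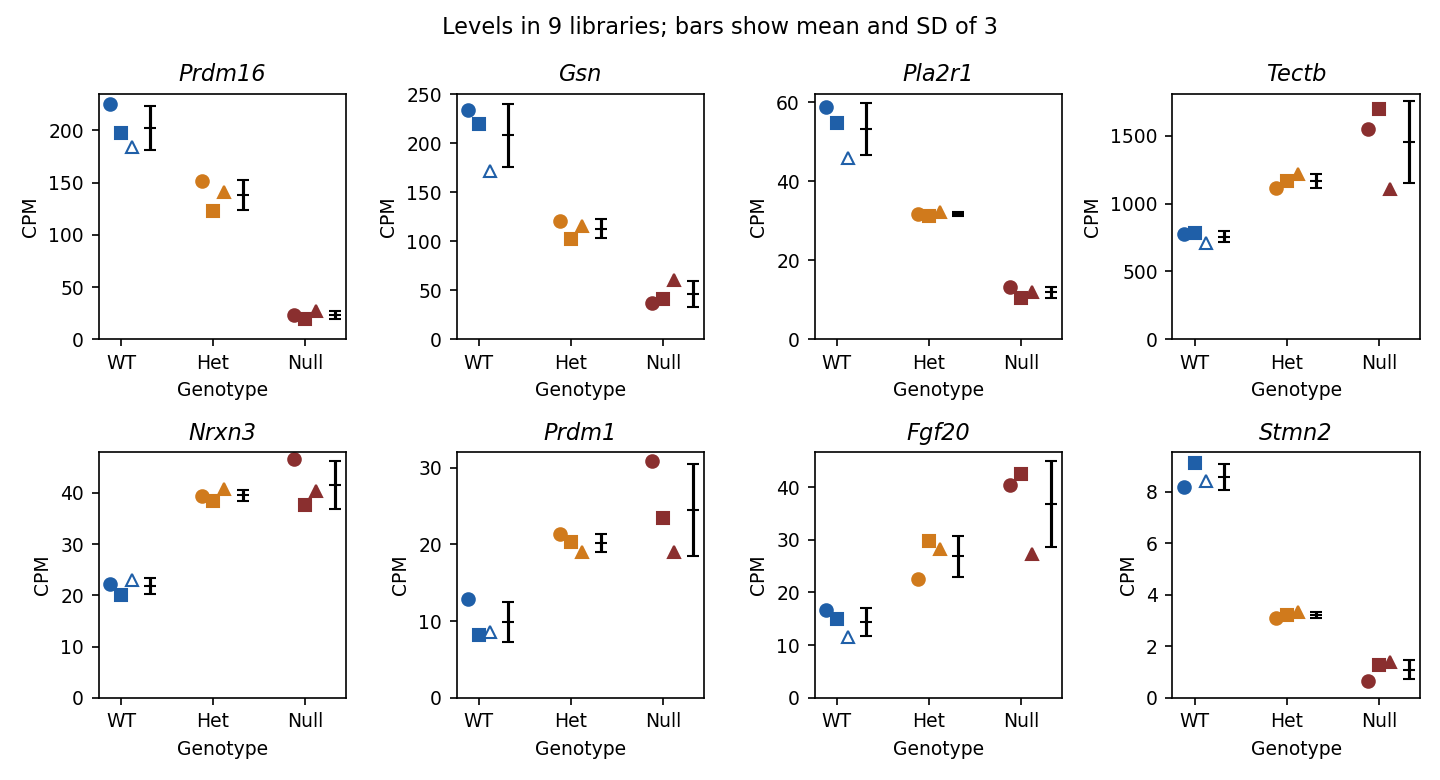
CPM of 8 genes in the 3 WT, 3 heterozygote and 3 null libraries (points; WT 3 open), with mean and SD of 3 beside them. Prdm16, Gsn, Pla2r1 and Stmn2 stand in the order WT, heterozygote, null without overlap, while Nrxn3 is at 38.5 to 40.7 CPM in heterozygotes and 37.6 to 46.7 CPM in null embryos.

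The endothelial list was measured with 18 genes, of which 13 were tested. All 13 had an unadjusted p under 0.05 with a lower heterozygote mean (7.33% of all genes tested did) and none was called (edgeR adjusted p from 0.0766 to 0.355). Pecam1, the adhesion protein of endothelial junctions, stood at 17.3, 14.4 and 0.237 CPM in WT and at 0.762, 0.576 and 1.35 CPM in the heterozygotes. Cdh5, the endothelial cadherin, stood at 22.8, 19.1 and 0 CPM in WT and at 0.562, 0 and 0.913 CPM in the heterozygotes. Kdr, the main VEGF receptor, stood at 26.5, 20.4 and 2 CPM in WT and at 1.16, 2.77 and 2.37 CPM in the heterozygotes. In all 13 genes WT 1 and 2 lay above the other 4 libraries, and in 1, Cldn5, WT 3 also lay above all heterozygotes (8.99% of all genes tested had every WT library above every heterozygote). The median log2 fold change of the list was -2.94, beside 2.94e-05 for all genes tested, and 0.38 with WT 3 as the only control. It was 0.38 also with the 3 genes without a count in WT 3 set at the floor of 3 counts. These genes stayed above the median at that floor, so the change could not move it. Endothelial RNA was thus lower in heterozygotes only against WT 1 and 2.

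All 20 mesenchyme genes, the top genes of the mesenchyme cluster in the study's single cells from other WT embryos, had an unadjusted p under 0.05 with a lower heterozygote mean (7.33% of all genes tested). None was called (edgeR adjusted p from 0.0757 to 0.251). Otor, the fibrocyte-derived otoraplin, stood at 105, 147 and 1.69 CPM in WT and at 0.481, 2.41 and 0.840 CPM in the heterozygotes, a difference of -6.05 on the log2 scale (standard error 1.28, edgeR adjusted p = 0.0766) and of -0.43 against WT 3. Pou3f4, a factor of otic mesenchyme, stood at 31.7, 56.0 and 3.25 CPM and at 1.04, 3.28 and 2.45 CPM. Col3a1, a fibrillar collagen, stood at 136, 287 and 35.3 CPM and at 9.63, 25.1 and 20.6 CPM. AI593442, the first gene of the list, stood at 9.99, 13.4 and 0.508 CPM and at 0.0802, 0.504 and 0.219 CPM. In 8 of the 20, every WT library lay above every heterozygote (8.99% of all genes tested). Col3a1, AI593442, Tbx18, Bgn, Pdgfra, Col26a1 and Clmp were among them. The list median was -2.71, and -0.38 with WT 3 as the only control. Tbx18, a T-box factor of the same mesenchyme, kept the largest difference there (7.35 CPM in WT 3 against 1.12 to 5.58 CPM, log2 fold change -1.11).

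For blood, macrophage and pigment cell RNA, the summed level of WT 3 lay above every heterozygote, as that of mesenchyme did. The globin gene Hbb-bs stood at 69.8, 105 and 36.8 CPM in WT and at 21.5, 13.0 and 25.8 CPM in the heterozygotes, and 6 of the 7 erythroid genes tested had every WT library above every heterozygote (8.99% of all genes tested). Their unadjusted p was under 0.05 in the same number of genes (7.33% of all genes tested) and their median log2 fold change was -1.81 (-0.97 against WT 3). Dct and Pmel, of melanin synthesis and melanosome structure, stood at 42.5, 65.4 and 28.6 CPM and 35.2, 52.0 and 20.8 CPM in WT, and at 9.39 to 19.4 CPM and 8.92 to 16.8 CPM in the heterozygotes. The melanocyte median was -1.68 over 7 genes tested (-0.94 against WT 3), and 4 of the 7 did not overlap. For the macrophage list, whose Csf1r stood at 4.40, 6.90 and 1.29 CPM in WT and at 0.756 to 0.840 CPM in the heterozygotes, the median was -2.40 over 9 genes tested (-0.79 against WT 3). In 6 of the 9 WT 3 lay above all heterozygotes, and in 2, Fcer1g and Lyz2, below them (27.1% and 27.2% of all genes tested). No gene of the 3 lists was called. Of 9 pericyte and smooth muscle genes tested, 3 had an unadjusted p under 0.05 with lower values (7.33% of all genes tested), none was called, and the median was -0.52 (-0.13 against WT 3). Pdgfrb, the PDGF receptor of pericytes, stood at 30.4, 41.3 and 10.7 CPM in WT and at 9.87 to 10.6 CPM in the heterozygotes (-1.43, edgeR adjusted p = 0.127; -0.07 against WT 3). Rgs5, another pericyte marker, stood at 38.3 to 41.0 CPM and 28.1 to 40.0 CPM, and Cspg4 at 5.46 to 9.41 CPM and 6.26 to 7.38 CPM. No label records how single embryos were dissected.

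Cartilage RNA did not stand apart in WT 1 and 2. Of 8 genes 4 were tested, none was called, and the median log2 fold change was 0.62 (1.02 against WT 3). Matn1, a matrilin of cartilage matrix, stood at 6.88, 5.17 and 7.22 CPM in WT and at 9.71, 13.6 and 7.86 CPM in the heterozygotes, with no overlap (0.69, edgeR adjusted p = 0.181). Acan, the aggrecan core protein, stood at 1.85, 2.39 and 1.02 CPM and at 1.89, 7.02 and 1.61 CPM, highest in Het 2 (1.01, standard error 0.543). Matn3 was near or under the floor but for 0.973 CPM in Het 2 and 0.333 CPM in WT 1. In Null 3 Acan stood at 501 CPM and Matn1 at 390 CPM, against at most 4.41 CPM and 11.3 CPM in the other null embryos. Cnmd, chondromodulin, made up most of the sum in the 6 libraries at 1190 to 1350 CPM.

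**Figure D4:**
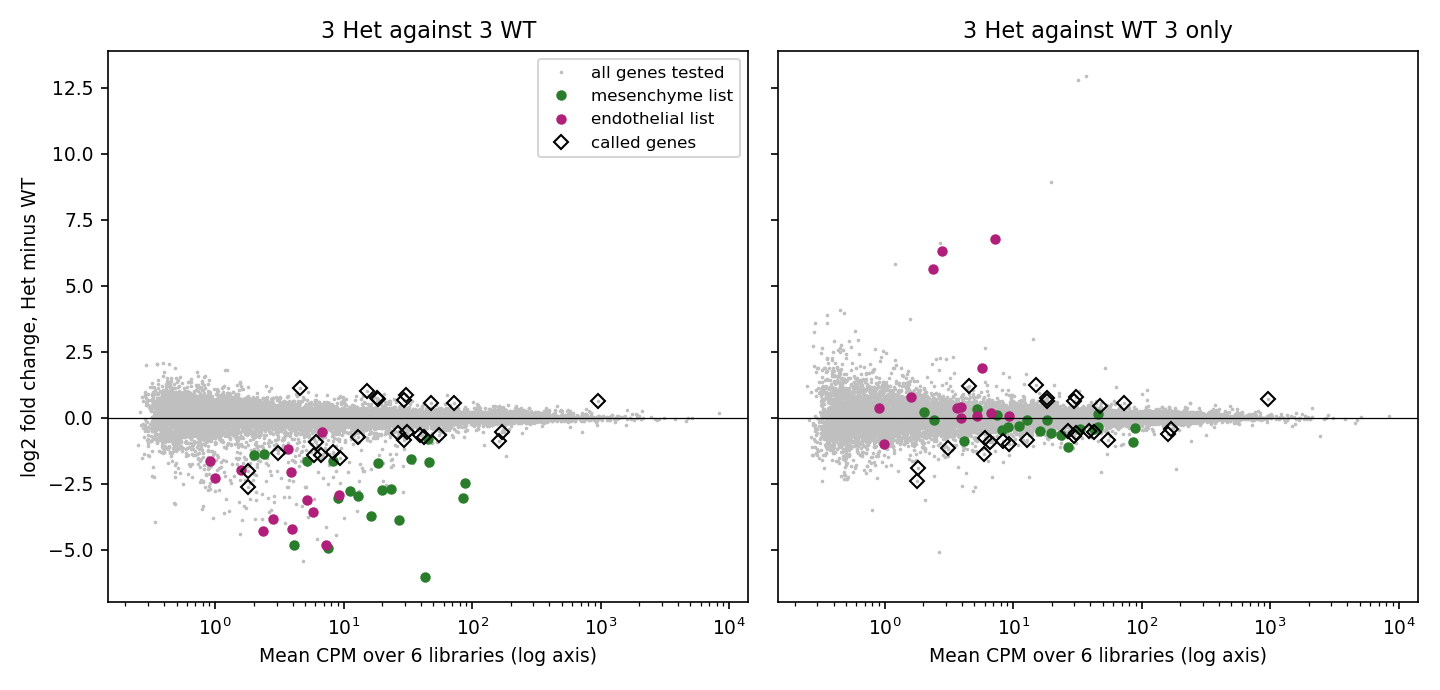
Log2 fold change (heterozygote minus WT) against mean CPM (log axis) for all genes tested (grey), with the mesenchyme (green) and endothelial lists (magenta) and the 26 called genes (open diamonds), with all 3 WT embryos (left) and with WT 3 alone (right). The endothelial median is -2.94 at left and 0.38 at right; the 3 high endothelial points at right have no count in WT 3, and the points highest at right are Y-linked genes, absent from the female WT 3.

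No gene of the neuronal list was called, and Stmn2, called lower, is not in that list. Of 15 genes, 12 were tested, and the median log2 fold change was -0.32 (-0.57 against WT 3). An unadjusted p under 0.05 was found for 5 with lower and 1 with higher heterozygote values (7.33% and 5.80% of all genes tested). The defining markers Elavl3 (0.444 to 0.901 CPM in WT, 0.329 to 0.963 CPM in heterozygotes) and Elavl4 (1.74 to 2.41 and 1.46 to 1.76 CPM) were low throughout. Nefl and Nefm, the light and medium neurofilaments, stood at 2.85 and 6.58 CPM in WT 3, above the other 5 libraries (0.160 to 0.666 and 0.256 to 1.85 CPM). Both were called against WT 3 alone (-3.49 and -3.14, edgeR adjusted p = 0.00520 and 0.00805). Gap43, a growth cone protein, was high in WT 1 and 2 instead, at 4.40 and 5.33 CPM against 1.12 CPM in WT 3 and 0.360 to 0.682 CPM in the heterozygotes (log2 fold change -2.83, edgeR adjusted p = 0.0649). Syt1, the calcium sensor of synaptic vesicles, stood at 4.07, 3.06 and 2.91 CPM in WT and at 0.901 to 1.69 CPM in the heterozygotes (-1.26, edgeR adjusted p = 0.0796). Dcx, which binds microtubules in young neurons, stood at 31.9 to 38.7 CPM and 23.4 to 31.2 CPM (-0.32, edgeR adjusted p = 0.260). Ntrk3, the neurotrophin 3 receptor, stood at 23.1 to 28.4 CPM and 28.5 to 33.6 CPM (0.28, edgeR adjusted p = 0.282). Neurod1, of young ganglion neurons, was at or under the floor but for 0.146 CPM in Het 3.

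Schwann and glial RNA overlapped between the genotypes for all but 1 of the genes tested. Erbb3, the neuregulin receptor, stood at 684 to 743 CPM in WT and 721 to 760 CPM in the heterozygotes. It made up most of the summed list (783 to 855 and 824 to 865 CPM), and Foxd3, Gfra3 and Dhh stood at 0 to 0.881 CPM. The list median was 0.06 over 6 genes tested (-0.10 against WT 3). Fabp7, of early glia, was the only one of the 6 with an unadjusted p under 0.05 (2.18, 3.29 and 5.05 CPM in WT, 1.26 to 2.13 CPM in the heterozygotes, edgeR adjusted p = 0.184), and the only one called against WT 3 alone (-1.58, edgeR adjusted p = 0.0348).

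Epithelial RNA did not differ by much. The 10 epithelial genes were all tested, their log2 fold changes ran from -0.08 to 0.18 with a median of 0.09 (-0.05 against WT 3), and none was called. Cldn6, a claudin of embryonic epithelia, stood at 526 to 573 CPM in WT and 579 to 621 CPM in the heterozygotes and was the only one without overlap (edgeR adjusted p = 0.302). Cldn3 stood at 93.7 to 116 CPM and 93.5 to 99.6 CPM.

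Of the 20 prosensory genes, 7 had an unadjusted p under 0.05 with higher heterozygote values, none with lower, and Tectb was called. Over all genes tested the shares were 5.80% and 7.33%, and 0.0521% were called higher. The list includes genes that the study follows in null embryos, so it is no independent sign of direction. Fgf20, the growth factor of the prosensory domain, stood at 16.6, 15.1 and 11.5 CPM in WT and at 22.5, 29.8 and 28.3 CPM in the heterozygotes. The groups did not overlap, and the difference of 0.90 on the log2 scale (standard error 0.149, edgeR adjusted p = 0.0504) missed the threshold. Against WT 3 alone it was 1.23 (edgeR adjusted p = 0.00805). Over 19 alternatives it ran from 0.0878 with neuronal RNA as a covariate (edgeR adjusted p = 0.902) to 1.31 with mesenchyme RNA, and 10 of them passed. Fgf20 shares 202 exon bases with Micu3 on the other strand, for which the log2 fold change was 0.13 (edgeR adjusted p = 0.609). Hey2, a Notch effector, stood at 50.4 to 54.6 CPM in WT and 63.5 to 67.9 CPM in the heterozygotes (0.31, edgeR adjusted p = 0.0631). Fat3, an atypical cadherin, stood at 179 to 198 CPM and 211 to 257 CPM (0.36, edgeR adjusted p = 0.0755). Lor stood at 14.7 to 19.4 CPM and 21.0 to 28.2 CPM (0.58, edgeR adjusted p = 0.0933). Cdkn1b, the cyclin-dependent kinase inhibitor p27, stood at 232 to 255 CPM and 279 to 305 CPM (0.23, edgeR adjusted p = 0.0800). Bdnf, a neurotrophin, stood at 11.6 to 13.1 CPM and 11.6 to 13.8 CPM (0.08, standard error 0.108). Over the 20 genes the median log2 fold change was 0.08, and 0.09 against WT 3.

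The Kölliker's organ list held 16 of the 20 top genes of its single-cell cluster. Prdm16 (called lower), Tectb (called higher, and kept in the prosensory list) and the cell cycle genes Cenpf and Top2a had been left out of it. The 16 genes went both ways. Nrxn3 was called higher and none lower, 3 genes had an unadjusted p under 0.05 with higher and 6 with lower heterozygote values (over all genes tested 0.0521% were called higher, and 5.80% and 7.33% had such a p), and the median log2 fold change was -0.11 (0.04 against WT 3). Efhd1, a calcium-binding protein of mitochondria, stood at 103, 87.9 and 74.7 CPM in WT and at 68.7, 51.7 and 65.0 CPM in the heterozygotes, with no overlap (-0.52, edgeR adjusted p = 0.0985; -0.27 against WT 3). Rgcc, a cell cycle regulator, stood at 51.1 to 63.7 CPM and 42.7 to 44.8 CPM (-0.38, edgeR adjusted p = 0.0766). Cryab, a small heat shock protein, stood at 199 to 203 CPM and 215 to 291 CPM (0.34, edgeR adjusted p = 0.126), and Tmod1, an actin cap, at 127 to 136 CPM and 142 to 185 CPM (0.29, edgeR adjusted p = 0.157). Clic6, an intracellular chloride channel, overlapped (225 to 307 CPM in WT, 218 to 260 CPM in the heterozygotes, log2 fold change -0.17, standard error 0.106), while null embryos stood at 67.4 to 91.2 CPM. Itga8, an integrin that the study also follows, stood at 168 to 259 CPM and 109 to 181 CPM (-0.53, edgeR adjusted p = 0.245; -0.22 against WT 3). Its antisense neighbour E030013I19Rik shares 372 exon bases with it.

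Among tectorial membrane genes, Tecta encodes α-tectorin, the partner of β-tectorin. It stood at 3229, 2812 and 2599 CPM in WT and at 3136, 2497 and 2783 CPM in the heterozygotes, where the groups overlapped. Its log2 fold change was -0.04 (standard error 0.105, edgeR adjusted p = 0.917) and 0.11 against WT 3 alone, so the direction was not fixed. Null embryos stood at 1392 to 1641 CPM, below every heterozygote (-0.88, standard error 0.124, edgeR adjusted p = 0.0265). Tectb, by contrast, was called in the heterozygotes. Otog, otogelin, stood at 1270 to 1570 CPM in WT and 1680 to 1940 CPM in the heterozygotes (0.31, edgeR adjusted p = 0.170). Col11a1, a fibrillar collagen, stood at 587 to 696 CPM and 459 to 553 CPM (-0.37, edgeR adjusted p = 0.0796). Zpld1, a zona pellucida-like protein, was highest in WT 2 (10.84, 19.75 and 3.999 CPM in WT, 1.93 to 2.70 CPM in the heterozygotes). Over 12 genes tested the median was -0.02 with either set of WT embryos.

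In the outer sulcus list, Pcdh17 was the only gene called, and 6 of 20 genes had an unadjusted p under 0.05 with higher and 1 with lower heterozygote values (over all genes tested 0.0984% were called lower, and 5.80% and 7.33% had such a p). Bmp4, the growth factor of this lateral domain, stood at 262 to 281 CPM in WT and 256 to 324 CPM in the heterozygotes (0.10, standard error 0.0752). Sgk1, a serum- and glucocorticoid-regulated kinase, stood at 62.5, 35.8 and 36.7 CPM and 68.5 to 96.4 CPM (0.85, edgeR adjusted p = 0.0938), and passed against WT 3 alone (1.15, edgeR adjusted p = 0.00488). C1qtnf12 stood at 72.8 to 80.7 CPM and 92.3 to 100 CPM (0.31, edgeR adjusted p = 0.0588). The outer sulcus median was 0.10, and -0.000341 against WT 3. Of 20 roof genes, 6 had an unadjusted p under 0.05 with higher and 1 with lower values, against the same shares, and none was called. The roof median was 0.04, and -0.08 against WT 3. The roof factor Otx2 stood at 165 to 203 CPM and 194 to 229 CPM, and Oc90, the main otoconial protein, at 7240 to 8450 CPM and 8760 to 9170 CPM (0.19, edgeR adjusted p = 0.373).

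**Figure D5:**
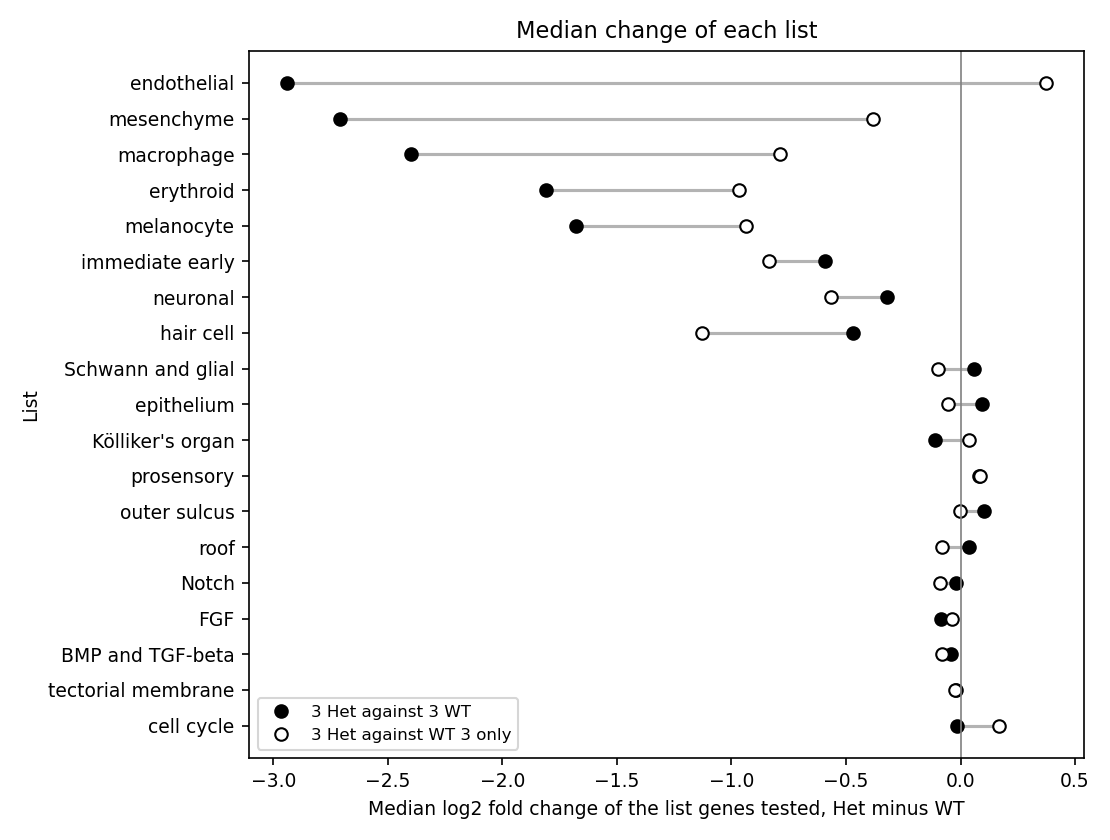
Median log2 fold change (heterozygote minus WT) of the tested genes of 19 lists, with all 3 WT embryos (filled) and with WT 3 as the only control (open). The endothelial median moves from -2.94 to 0.38 and the mesenchyme median from -2.71 to -0.38, while the prosensory median stays at 0.08 and 0.09.

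None of the 28 Notch pathway genes was called, 6 had an unadjusted p under 0.05 with higher and 7 with lower heterozygote values (5.80% and 7.33% of all genes tested), and the median was -0.02 (-0.09 against WT 3). Of the ligands, Jag1 stood at 385, 392 and 418 CPM in WT and at 492, 514 and 465 CPM in the heterozygotes, with no overlap (0.30, standard error 0.0527, edgeR adjusted p = 0.0588). Jag2 stood the other way, at 59.9 to 73.3 CPM and 45.9 to 58.1 CPM (-0.37, edgeR adjusted p = 0.126). Dll4, the ligand of vessels, was highest in WT 1 and 2 (2.92, 3.14 and 0.712 CPM in WT, 0.324 to 0.512 CPM in the heterozygotes). The receptor Notch2 stood at 208 to 230 CPM and 236 to 251 CPM (0.15, edgeR adjusted p = 0.208). Of the fringe enzymes that modify the receptors, Lfng stood at 16.3, 9.92 and 11.8 CPM in WT and at 24.0, 18.1 and 22.5 CPM in the heterozygotes (0.77, standard error 0.175, edgeR adjusted p = 0.0917), and Mfng at 4.11 to 7.02 CPM and 2.85 to 3.22 CPM (-0.80, edgeR adjusted p = 0.147). Mfng was the only gene of the list called against WT 3 alone (-1.23, edgeR adjusted p = 0.0251). Hey1, a target, stood at 136 to 148 CPM and 159 to 169 CPM (0.21, edgeR adjusted p = 0.0861). Rbpj, the DNA-binding partner, stood at 37.1 to 40.1 CPM and 33.7 to 34.6 CPM (-0.19, edgeR adjusted p = 0.236), and the coactivator Maml2 at 67.1 to 74.2 CPM and 63.5 to 64.9 CPM.

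Of the 21 FGF pathway genes, Fgf16 was the only one called, and 5 had an unadjusted p under 0.05 with higher and 3 with lower heterozygote values (median -0.09, and -0.04 against WT 3). The shares over all genes tested were 0.0521% called higher, and 5.80% and 7.33% at that p. The ligand Fgf9 stood at 56.3 to 60.7 CPM in WT and 67.3 to 71.7 CPM in the heterozygotes (0.22, edgeR adjusted p = 0.104). The receptor Fgfr4 stood at 17.36, 19.59 and 10.03 CPM and 8.002 to 9.005 CPM (-0.86, edgeR adjusted p = 0.111; -0.22 against WT 3). The feedback phosphatase Dusp6 stood at 106, 68.6 and 65.9 CPM in WT and 115, 115 and 134 CPM in the heterozygotes (0.60, edgeR adjusted p = 0.126). Against WT 3 alone Dusp6 (0.88, edgeR adjusted p = 0.00138), Spry2 (0.63, edgeR adjusted p = 0.0314) and Fgf20 passed and Fgf16 did not, where 0.182% of all genes were called higher. Spry2, another feedback inhibitor, overlapped at 37.5 to 65.1 CPM and 63.3 to 79.7 CPM, and Spry4 was high in WT 1 and 2 (30.1 and 26.3 CPM against 9.46 CPM in WT 3 and 12.1 to 13.6 CPM in the heterozygotes).

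Of 28 BMP and TGF-beta genes tested none was called, with 4 higher and 5 lower at an unadjusted p under 0.05 (5.80% and 7.33% of all genes tested) and a median of -0.04 (-0.08 against WT 3). The BMP target Id4 stood at 47.8 to 59.2 CPM in WT and 63.8 to 71.0 CPM in the heterozygotes (0.32, edgeR adjusted p = 0.128). Id1, Id2 and Id3 went the other way with overlap (log2 fold change -0.13, -0.03 and -0.25). The antagonist Chrdl1 stood at 16.3 to 18.8 CPM and 22.4 to 27.1 CPM (0.46, edgeR adjusted p = 0.0796). The receptor Tgfbr2 stood at 34.4, 41.3 and 23.4 CPM and 19.9 to 20.9 CPM (-0.70, edgeR adjusted p = 0.102; -0.21 against WT 3). Smad6 stood at 68.4 to 78.1 CPM and 78.8 to 83.8 CPM (0.15, edgeR adjusted p = 0.310).

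Cell cycle genes showed no difference beyond the spread between embryos. Of 40, none had an unadjusted p under 0.05, and the median was -0.02. Against WT 3 alone it was 0.17, with WT 3 below all heterozygotes in 17 of the 40 genes (27.2% of all genes tested) and none called. Mki67, a marker of cycling cells, stood at 292, 342 and 267 CPM in WT and at 270, 352 and 289 CPM in the heterozygotes, with a log2 fold change of 0.02 (standard error 0.106). Top2a stood at 289 to 391 CPM and 283 to 372 CPM.

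Among genes over 10 CPM on average and apart from sex-linked genes, the widest spread was that of Otor within WT and of Fosb within the heterozygotes. Fosb, an AP-1 subunit of the immediate early response, stood at 14.3, 40.1 and 137 CPM in WT and at 11.0, 18.1 and 69.5 CPM in the heterozygotes, a wider spread within than between genotypes. Summed over 12 immediate early genes the levels were 678, 1210 and 1540 CPM in WT and 673, 750 and 1160 CPM in the heterozygotes. An unadjusted p under 0.05 with lower heterozygote values was found for 6 of the 12 (7.33% of all genes tested), and none was called (Jun at 171 to 356 CPM and 149 to 226 CPM, edgeR adjusted p = 0.348). Against WT 3 alone the log2 fold change was -0.87 for Jun, -1.03 for Nr4a1 and -0.60 for Btg2. The median of the list went from -0.59 to -0.83. Zfp36 was the only one without overlap (20 to 35.2 CPM in WT, 11.4 to 16.5 CPM in the heterozygotes, edgeR adjusted p = 0.0904). The inducible heat shock gene Hspa1b stood at 2.26, 44.4 and 19.9 CPM in WT and at 3.41 to 5.62 CPM in the heterozygotes, and with Hspa1a was called lower against WT 3 alone (edgeR adjusted p = 0.000955 and 0.00166).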

How the data were processed

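The bulk RNA libraries of 3 WT and 3 heterozygote embryos were compared, with 3 null libraries for reference. Per the labels, the submitters' processing notes name cutadapt 1.13, STAR, HTSeq 0.6.1p1, DESeq2 and mm10. The files hold raw read counts for each Ensembl gene, deposited without normalisation. The strand setting and annotation release are not given in the sources used here. No row lacked a gene. All 37 mitochondrial genes held 0 counts. Names and positions came from GENCODE (54165 of 54232 genes).

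Groups follow the genotype labels. Genes were tested with edgeR 4.0.16 in R 4.3.3 on the 6 libraries (TMM, filterByExpr with a minimum count of 10, quasi-likelihood test, two-sided, Benjamini-Hochberg over 17269 genes), and called at an adjusted p under 0.05 with an absolute log2 fold change over 0.5. An exact permutation test of 3 embryos against 3 cannot go below 0.1. CPM values use TMM factors over all 9 libraries. The standard error is the log2 fold change over the square root of F. Libraries of the same genotype differed beyond sampling noise (lowest chi-square 5.70 per gene), so all were kept as separate embryos. The embryos are described as littermates, and no label links an embryo number to a litter.

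The genes named were Prdm16, every called gene, the first 3 genes of each cell type list, list genes called or without overlap at an unadjusted p under 0.05, 11 genes the study follows in null embryos, and the most variable genes. In long lists some of these are given by counts only. Some list genes are not reported here. Members and lists were chosen with earlier results of these data known. Lists were hand-written or were top genes of the study's single-cell clusters. Of 386 list entries, 385 matched a gene.

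Alternatives were DESeq2 1.42.0, limma-voom (limma 3.58.1), other scalings, filters and thresholds, all 9 libraries, the replicate number as a block, covariates for sex and for mesenchyme, endothelial and neuronal RNA, and each embryo left out. Leaving out WT 1 and 2 together was added after seeing the data. On simulated counts for 17014 genes, edgeR recovered 40 of 66 genes changed by 0.585 on the log2 scale, 59 of 66 changed by 1 and 66 of 66 changed by 2, with 10 false calls. Depth and the 3 embryos per genotype set the precision.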

Additional observations from a re-analysis of the deposited data

How the results depend on the processing

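The counts of 9 higher and 17 lower genes moved with most choices. DESeq2 gave 48 and 271, limma-voom 5 and 6, no filter on low counts 109 and 575, all 9 libraries 0 and 0 (1130 genes at an unadjusted p under 0.05, against 2266), sex as a covariate 19 and 34, mesenchyme RNA as a covariate 2 and 9 (1318 genes at an unadjusted p under 0.05), and neuronal RNA as a covariate 17 and 134. Endothelial RNA as a covariate gave 4 higher genes. No threshold on size gave 22 higher genes, and a threshold of 1 gave 2 and 7. With WT 1 and 2 left out there were 34 and 49. Without a single embryo the higher genes numbered 0 to 47 and the lower 0 to 458.

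Whether the numbers 1 to 3 in the labels pair the embryos could not be told from so few embryos. The correlations of same-numbered deviations were 0.203, 0.124 and -0.0513, and not every library correlated best with its own number. With the replicate block, 32 genes were higher and 165 lower.

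Prdm16 kept its direction. It missed the threshold with limma-voom (-0.55), a mean count of 100 or more (-0.54), all 9 libraries (-0.55), the mesenchyme (-0.48), endothelial (-0.43) or neuronal covariate (-0.58) and without WT 1 and 2 (-0.41), and ranged from -0.62 to -0.46 with 1 embryo left out (edgeR adjusted p up to 0.434 over the alternatives).

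The endothelial median became 0.33 with the mesenchyme covariate, -0.0177 with the endothelial, -6.58 with the neuronal and 0.38 without WT 1 and 2. The mesenchyme median became -0.013, -0.92, -5.64 and -0.38 in the same order. The neuronal median became -0.66, -0.52, 0.24 and -0.57, and was 0.0645 at a mean count of 100 or more and -0.75 as a mean. The epithelium median became -0.0494, -0.0155, 0.27 and -0.0529. The Schwann and glial median was -0.0964 without WT 1 and 2 and -0.0841 as a mean. With 1 embryo left out, the neuronal median ranged from -0.40 to -0.12. A covariate for a list that separates WT 1 and 2 takes part of the genotype difference by construction.

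Of 643 fold changes of named genes, 8 reversed, all of Tecta and Clic6. Tecta became 0.0303 with the mesenchyme covariate, 0.0847 with the endothelial and 0.11 without WT 1 and 2, and was 0.0377 without Het 2 and 0.0512 without WT 1. Clic6 became 0.0708, 0.0505 and 0.11 in the first 3 of these. The causes were not tested. Genes under about 1 CPM rest on few reads, and the effect of depth on them was not tested.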

Other observations

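Of the 17 lower genes, 9 stood above all heterozygotes in Null 3, as did 34.1% of all genes tested. Of the 9 higher genes, 4 did. In 1 of the 17 lower genes WT 1 and 2 were both at least 1.5 times WT 3, as in 4.01% of all genes tested.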
